A study of Mus musculus with 768 samples.

Results

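The S100 genes encode small calcium-binding proteins, and 8 of them were followed here in single fibroblasts of mouse mammary tumors: *S100a1*, *S100a4*, *S100a6*, *S100a10*, *S100a11*, *S100a13*, *S100a16* and *S100b*. They were chosen by symbol, among 24490 endogenous genes in the tables, to set *S100a4*, which was read in some cells and not in others, beside its relatives. Each sample was 1 cell sorted into 1 well, and 727 of 768 wells had at least 10000 reads outside the ERCC spike-ins (synthetic RNAs added to every lysate) and were used. All cells came from FVB/N-Tg(MMTVPyVT)634Mul/J mice, in which the MMTV promoter drives the polyomavirus middle T antigen in the mammary epithelium, and were taken at 14 weeks of age from carcinomas after perfusion with PBS. The sort kept cells negative for EpCAM, CD45, CD31 and NG2 and used no positive fibroblast marker. Each of 2 plates held the cells of 1 tumor, so tumor and plate cannot be told apart, and the tumor was the replicate in every comparison (n = 2). The series holds no untreated or normal tissue group, and the comparisons are between cell populations within these tumors.

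S100 proteins carry a pair of EF-hand loops and mostly form dimers. Most of them, but not all, expose a hydrophobic face on binding calcium through which they dock to other proteins. S100A4 binds non-muscle myosin heavy chains and, under the name fibroblast-specific protein, has long served as a fibroblast marker. S100A6 (calcyclin) binds the ubiquitin ligase adaptor CacyBP, S100A10 and S100A11 pair with annexin A2 and annexin A1, S100A13 takes part in the release of FGF1, S100A1 is best known from heart muscle, S100A16 is a widely expressed member, and S100B is a classical marker of glia that is also made by cartilage and melanocytes.

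Most of the family lies in 1 gene cluster. In the RefSeq annotation of GRCm38.p6, 7 members lay on chromosome 3 within 3053612 bases, and *S100b* stood alone on chromosome 10 (76253836 to 76261319, plus strand). *S100a4* (chromosome 3, 90603770 to 90606045) and *S100a6* (90612894 to 90614414) lay on the plus strand with 6848 bases between them, a gap that holds *S100a5* (90606480 to 90611784). *S100a1* (90511034 to 90514330, minus strand) and *S100a13* (90514233 to 90524581, plus strand) overlapped by 98 bases on opposite strands, and the library kit does not mark the strand, so reads in that stretch could belong to either gene. *S100a10* (93555117 to 93564645) and *S100a11* (93520496 to 93526288) lay farther along the chromosome, 28828 bases apart.

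The 250 bases before the start of 4 members are printed because they stand for the patterns described next: *S100a4*, read in part of the cells of every population; *S100a6* and *S100a11*, read in nearly all cells; and *S100b*, highest by far in dCAF-like cells in share of cells and in level. All 4 are from RefSeq on GRCm38.p6, on the plus strand. Capitals mark matches on either strand to TATAAA (the TATA box), TGANTCA or GGGCGG (the GC box). TGANTCA is a looser form of the AP-1 motif, with any base in the middle.
S100a4 (chr3:90603520-90603769): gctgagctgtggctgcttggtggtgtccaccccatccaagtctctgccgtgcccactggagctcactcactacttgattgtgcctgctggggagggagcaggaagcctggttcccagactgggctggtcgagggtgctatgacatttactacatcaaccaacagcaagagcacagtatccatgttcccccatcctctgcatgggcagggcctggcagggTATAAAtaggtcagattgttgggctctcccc
S100a6 (chr3:90612644-90612893): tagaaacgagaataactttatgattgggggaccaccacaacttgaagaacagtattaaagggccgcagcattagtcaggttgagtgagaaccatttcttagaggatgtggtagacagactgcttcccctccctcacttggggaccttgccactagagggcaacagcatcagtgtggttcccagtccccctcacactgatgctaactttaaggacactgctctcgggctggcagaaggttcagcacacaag
S100a11 (chr3:93520246-93520495): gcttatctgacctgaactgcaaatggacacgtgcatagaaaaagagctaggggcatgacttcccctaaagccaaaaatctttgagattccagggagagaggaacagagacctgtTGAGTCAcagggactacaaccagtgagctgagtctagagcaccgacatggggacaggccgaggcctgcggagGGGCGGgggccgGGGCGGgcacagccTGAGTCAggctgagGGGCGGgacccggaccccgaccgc
S100b (chr10:76253586-76253835): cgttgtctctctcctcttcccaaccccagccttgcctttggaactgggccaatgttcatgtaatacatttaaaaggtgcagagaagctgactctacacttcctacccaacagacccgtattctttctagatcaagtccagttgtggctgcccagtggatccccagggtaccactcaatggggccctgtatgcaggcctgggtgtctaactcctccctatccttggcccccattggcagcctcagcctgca
Promoter entries were found for 7 of the 8 members (*S100a10* had none), and *S100a16* had an entry for each of 2 starts. *S100a4* was the 1 member of 7 with TATAAA in this window, beginning 31 bases before the start, against 12.3% of 32536 RefSeq promoter windows of the same length. TGANTCA, found in 6.73% of all windows, was in 2 members: *S100a11*, which held it 2 times, and the second *S100a16* entry. GGGCGG, found in 33.0% of windows, was in the same pair of members, 3 times in *S100a11*. None of these 3 motifs was in the *S100a6* or *S100b* window.

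Reads outside the ERCC spike-ins ran from 10281 to 1190516 per well, with a median of 219264 in tumor 1 and 198180 in tumor 2. Cells were clustered on variable genes with all S100 genes left out, and clusters were named from fixed marker lists. There were 497 vCAF-like cells (262 in tumor 1, 235 in tumor 2), which carried perivascular genes such as *Rgs5* and *Notch3*. There were 142 mCAF-like cells (76 and 66) with matrix genes such as *Dcn* and *Pdgfra*, 43 cCAF-like cells (24 and 19) with cell-cycle genes such as *Mki67*, and 29 dCAF-like cells (9 and 20) with developmental genes such as *Sox10* and *Scrg1*. Another 16 wells stayed unnamed. Population sizes depended on the random start of the map, of which 50 were run and the one of lowest cost was kept: dCAF-like cells numbered 29 to 45 over the starts (median 33) and mCAF-like cells 8 to 149 (median 143). Because the populations were drawn from the other genes of these same cells, genes that travel with the cluster-defining genes differ between them in part by construction. Depth was not equal: the median was 193563 and 190172 reads in vCAF-like cells and 292514.5 and 234829 in mCAF-like cells, so shares of cells with a read are also given after every cell was thinned to 42000 reads, which 691 wells allowed. Among the listed epithelial markers, only *Epcam* encodes a protein that the sort selected against. The list summed to 1842 and 329.6 RPM (reads scaled to the library total, with no regard to gene length) in dCAF-like cells. It summed to 48.9 and 35.9 in vCAF-like and 12.5 and 22.8 in mCAF-like cells. Its genes were read unevenly in dCAF-like cells of the 2 tumors. *Krt14* was read in 5 of 9 and 1 of 20, *Krt18* in 1 of 9 and 6 of 20, and *Epcam* in 2 of 9 and 4 of 20.

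**Figure D1:**
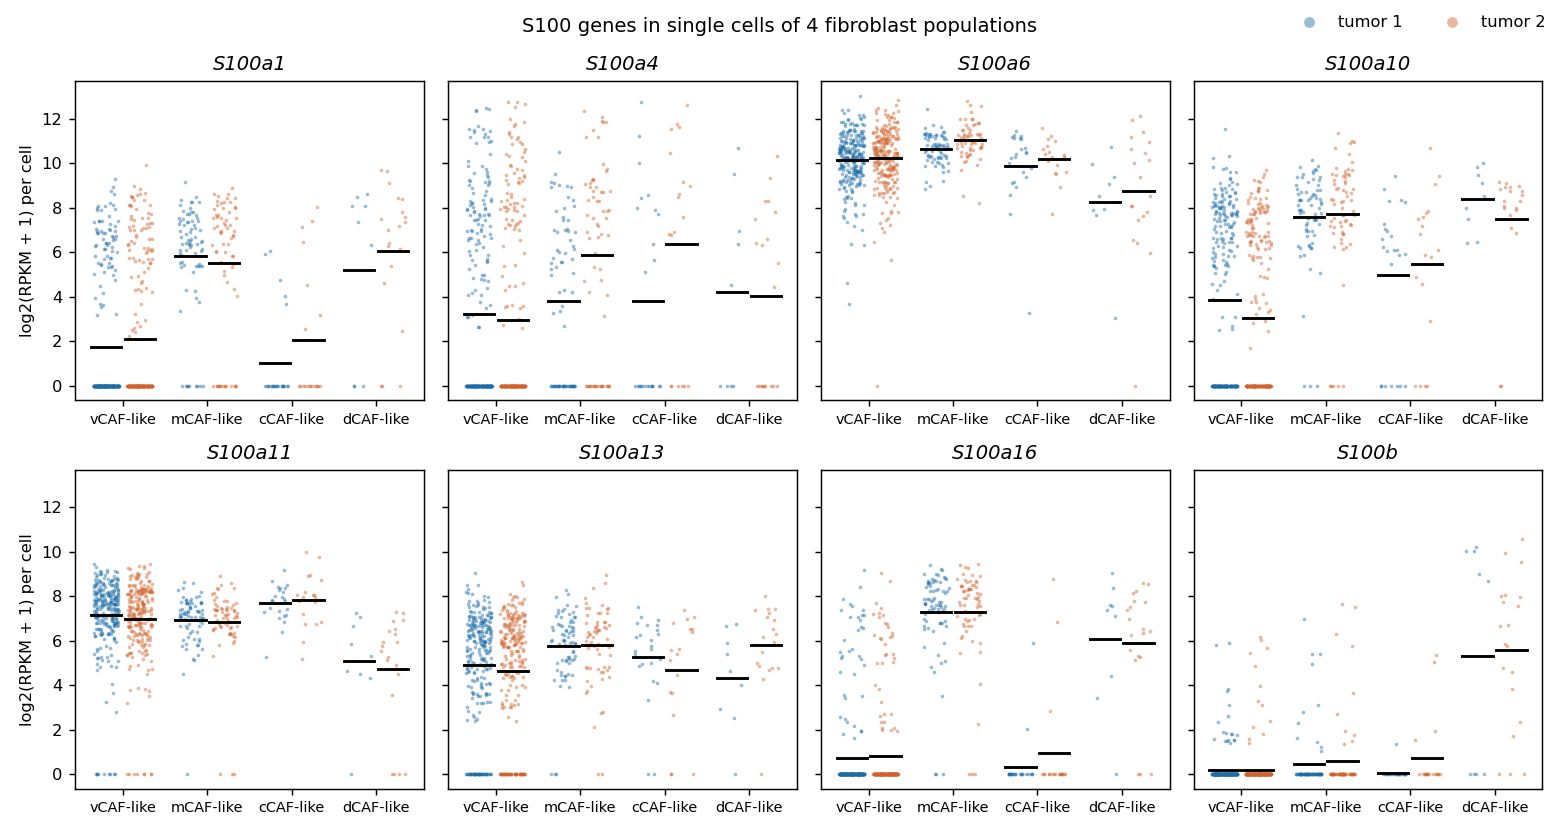
Level of each S100 gene in single cells of the 4 named populations, as log2(RPKM + 1) on the y axis, with 1 point per cell, colored by tumor, and a black bar at the mean of each tumor. *S100a6* and *S100a11* form 1 cloud with few cells at 0. *S100a4* splits into cells at 0 and cells spread up to an RPKM of 6987. *S100a16* leaves 0 in most mCAF-like and dCAF-like cells. *S100b* leaves 0 in most dCAF-like cells, with scattered values elsewhere, the highest an RPKM of 201 in an mCAF-like cell.

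*S100a6* was the most abundant member in every population of both tumors. Its mean level in RPKM (reads scaled by library size and by the length of the gene, which allows genes of different length to be compared) was 1505 and 1652 in tumors 1 and 2 for vCAF-like cells, 1761 and 2384 for mCAF-like cells, 1339 and 1357 for cCAF-like cells, and 553 and 1146 for dCAF-like cells. At least 1 *S100a6* read was found in 100% and 99.6% of vCAF-like cells, in all mCAF-like and cCAF-like cells, and in 100% and 95% of dCAF-like cells. In dCAF-like cells of the map used, the mean levels of both tumors lay below those of every other named population. These means leave out 10 cells of an unnamed cluster, with a median *S100a6* RPKM of 3936, which Leiden clustering counted as dCAF-like. The order with these cells included was not tested.

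*S100a11* was also read nearly everywhere, at a mean RPKM of 208 and 193 in vCAF-like, 149.9 and 154 in mCAF-like, and 237 and 309 in cCAF-like cells. In dCAF-like cells its mean was 61.0 and 57.8, below each of the other 6 tumor means. The share of cells with a read was 96.6% and 96.6% for vCAF-like cells and 88.9% and 80% for dCAF-like cells. A processed copy of this gene, *S100a11-ps*, is annotated on chromosome 12, and the way the counting shared reads between the copies is uncertain. *S100a13* had the evenest levels over populations, with mean RPKMs between 39.7 and 90.7 over the 8 tumor means, and was read in 78.3% to 97.0% of cells.

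*S100a4* differed from these relatives in how it was spread over cells. It had no read in 54.2% and 53.4% of the wells of tumors 1 and 2, yet its median in the wells with a read was an RPKM of 174 and 334, with maxima of 6987 and 6958. The tenth of wells with the most *S100a4* held 79.1% and 73.2% of its summed RPKM. Its mean RPKM was second only to *S100a6* in vCAF-like cells (295 and 358) and cCAF-like cells (500.1 and 1034), although most vCAF-like cells had no read.

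The share of *S100a4*-positive cells was 38.9% ± 4.41 (SD, n = 2) of vCAF-like, 64.6% ± 9.42 of mCAF-like, 57.1% ± 15.97 of cCAF-like and 55.3% ± 0.393 of dCAF-like cells. After thinning to 42000 reads the means were 34.8%, 52.3%, 55.9% and 40.4%, with the lowest mean still in vCAF-like cells. The mean level followed another order. In mCAF-like cells it was 117 and 608 RPKM in tumors 1 and 2, a range that enclosed both vCAF-like values, and dCAF-like cells had 289.7 and 165. The cCAF-like values lay above both vCAF-like and both dCAF-like values, but the lower of them lay below the higher mCAF-like one.

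Among vCAF-like and mCAF-like cells, those without *S100a4* were found in every depth group, and those without *S100a11* only in the shallowest. The dCAF-like cells were not split by depth. Among them *S100a11* had no read in a cell of 280474 reads in tumor 1 and in one of 175870 reads in tumor 2. When the vCAF-like cells of tumor 1 were split into 4 equal groups by depth, *S100a4* was read in 39.4%, 35.4%, 36.9% and 56.1% of cells from the shallowest to the deepest, and in tumor 2 in 32.2%, 35.6%, 41.4% and 33.9%. *S100a11* was read in 86.4%, 100%, 100% and 100% of the same groups in tumor 1 and in 86.4%, 100%, 100% and 100% in tumor 2. In mCAF-like cells the *S100a4* share was 36.8%, 68.4%, 73.7% and 52.6% in tumor 1, and 47.1%, 62.5%, 87.5% and 88.2% in tumor 2. The *S100a4* share thus rose with depth in mCAF-like cells of tumor 2, while in vCAF-like cells many of the deepest cells had no read.

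Cells rich in *S100a6*, which lies near *S100a4* on the same strand, did not all have *S100a4*. Of the wells with an *S100a6* RPKM of at least 1000, 113 of 246 (45.9%) in tumor 1 and 101 of 241 (41.9%) in tumor 2 had no *S100a4* read. Conversely, of 25 and 44 wells with an *S100a4* RPKM of at least 1000, 24 and 42 also had at least 1000 of *S100a6*. Over 4 equal groups of vCAF-like cells in rising order of *S100a6* level, *S100a4* was read in 24.2%, 47.0%, 40% and 56.9% of cells in tumor 1 and in 13.6%, 39.0%, 32.2% and 58.6% in tumor 2. The highest group stood above the lowest in both tumors and, at 78.9% against 42.1% and 87.5% against 58.8%, in mCAF-like cells too.

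**Figure D2:**
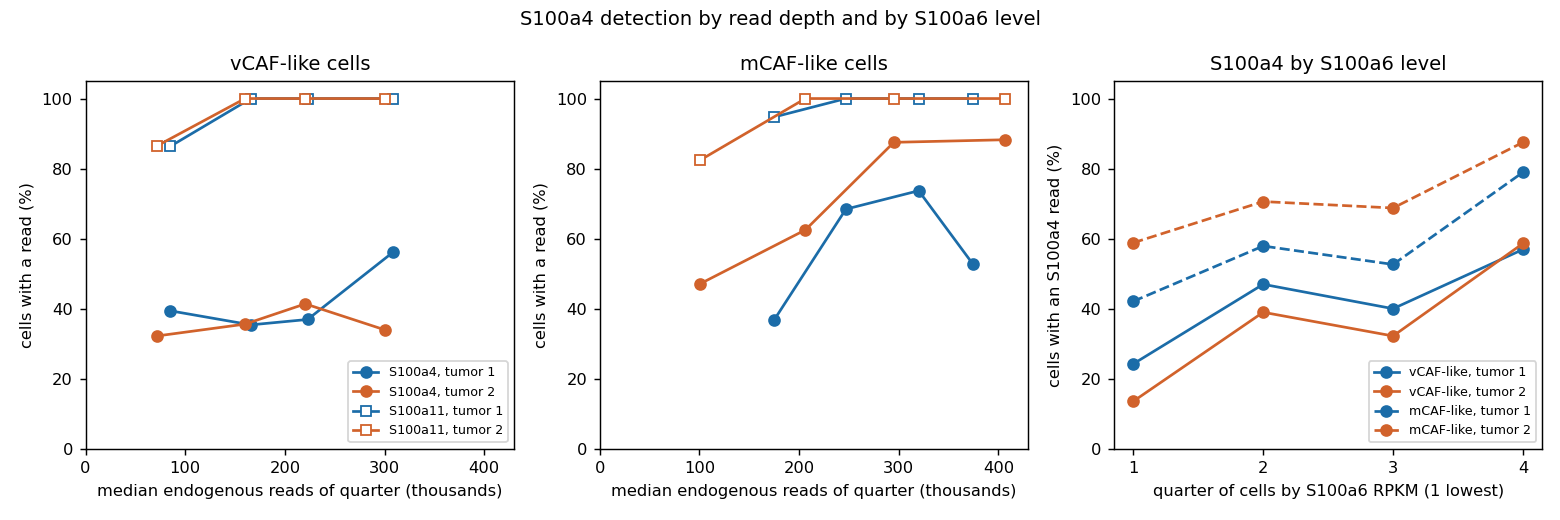
Percent of vCAF-like (left) and mCAF-like cells (middle) with a read of *S100a4* (filled circles) or *S100a11* (open squares), in 4 equal groups of cells by depth (quartiles), with the median reads of the group on the x axis, and percent with an *S100a4* read in 4 equal groups by *S100a6* RPKM (right, vCAF-like solid and mCAF-like dashed). *S100a11* is at 100% above the shallowest group, *S100a4* stays between 32.2% and 56.1% in vCAF-like cells, and its share is lowest in the cells with the least *S100a6*.

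*S100a16* separated mCAF-like and dCAF-like cells from the others. It was read in 96.1% and 95.5% of mCAF-like and 88.9% and 85% of dCAF-like cells, but in 14.1% and 16.2% of vCAF-like and 8.33% and 15.8% of cCAF-like cells. Thinned to equal depth, the shares were 93.3% and 93.9% in mCAF-like and 9.56% and 11.8% in vCAF-like cells. The mean RPKM was 240.4 and 250.1 in mCAF-like cells, 174 and 137 in dCAF-like cells, 12.7 and 12.97 in vCAF-like cells and 2.55 and 29.0 in cCAF-like cells, and the mCAF-like and dCAF-like values did not overlap those of the other populations. The 37 and 38 vCAF-like cells with an *S100a16* read carried 1549 and 1977 RPM for the mCAF-like marker list, against 335 and 301 in vCAF-like cells without one. Their vCAF-like list stood at 13109.6 and 15045 RPM against 23239.8 and 22430.2. The part of mixed or misassigned wells in these values was not tested.

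*S100a1* had a similar but shallower pattern. It was read in 88.2% and 78.8% of mCAF-like and 66.7% and 85% of dCAF-like cells, and in 27.5% and 33.6% of vCAF-like and 20.8% and 36.8% of cCAF-like cells. Its mean RPKM was 114 and 133 in mCAF-like and 169.8 and 209 in dCAF-like cells, against 33.6 and 47.1 in vCAF-like and 7.47 and 36.1 in cCAF-like cells. *S100a10*, the annexin A2 partner, was read in 96.1% and 92.4% of mCAF-like and 100% and 90% of dCAF-like cells, against 53.1% and 45.1% of vCAF-like cells. Its mean RPKM was 318 and 480.2 in mCAF-like, 462 and 319.6 in dCAF-like and 134 and 81.6 in vCAF-like cells. The cCAF-like cells lay between in share, with a read in 70.8% and 78.9% of cells. Their mean RPKM was 130.8 and 220.4, the first of which lay below the vCAF-like value of the same tumor.

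*S100b* was read in the smallest share of wells but at its highest levels in dCAF-like cells. It was read in 5 of 9 dCAF-like cells of tumor 1, where the positive cells had 409.8 to 1192 RPKM, and in 17 of 20 of tumor 2, where they had 2.31 to 1505. Outside this population it was read in 7.25% and 5.53% of vCAF-like, 14.5% and 15.2% of mCAF-like and 4.17% and 21.1% of cCAF-like cells, and the mean RPKM did not exceed 8.19 in any of these. The dCAF-like means were 468 and 240.4. In tumor 1 the 4 dCAF-like cells without *S100b* had a median of 2105 RPKM summed over the epithelial list, against 63.1 in the 5 cells with it. In tumor 2 the medians were 251 in 3 cells and 85.1 in 17 cells. Chondrocyte markers summed to 412 and 1224 RPM in dCAF-like cells of tumors 1 and 2, against 2.76 and 4.01 in vCAF-like cells, with reads of 3 and 4 of the 6 listed genes and none of *Matn1* or *Matn3* in either tumor. The part of epithelial or cartilage RNA in the dCAF-like values was not tested.

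**Figure D3:**
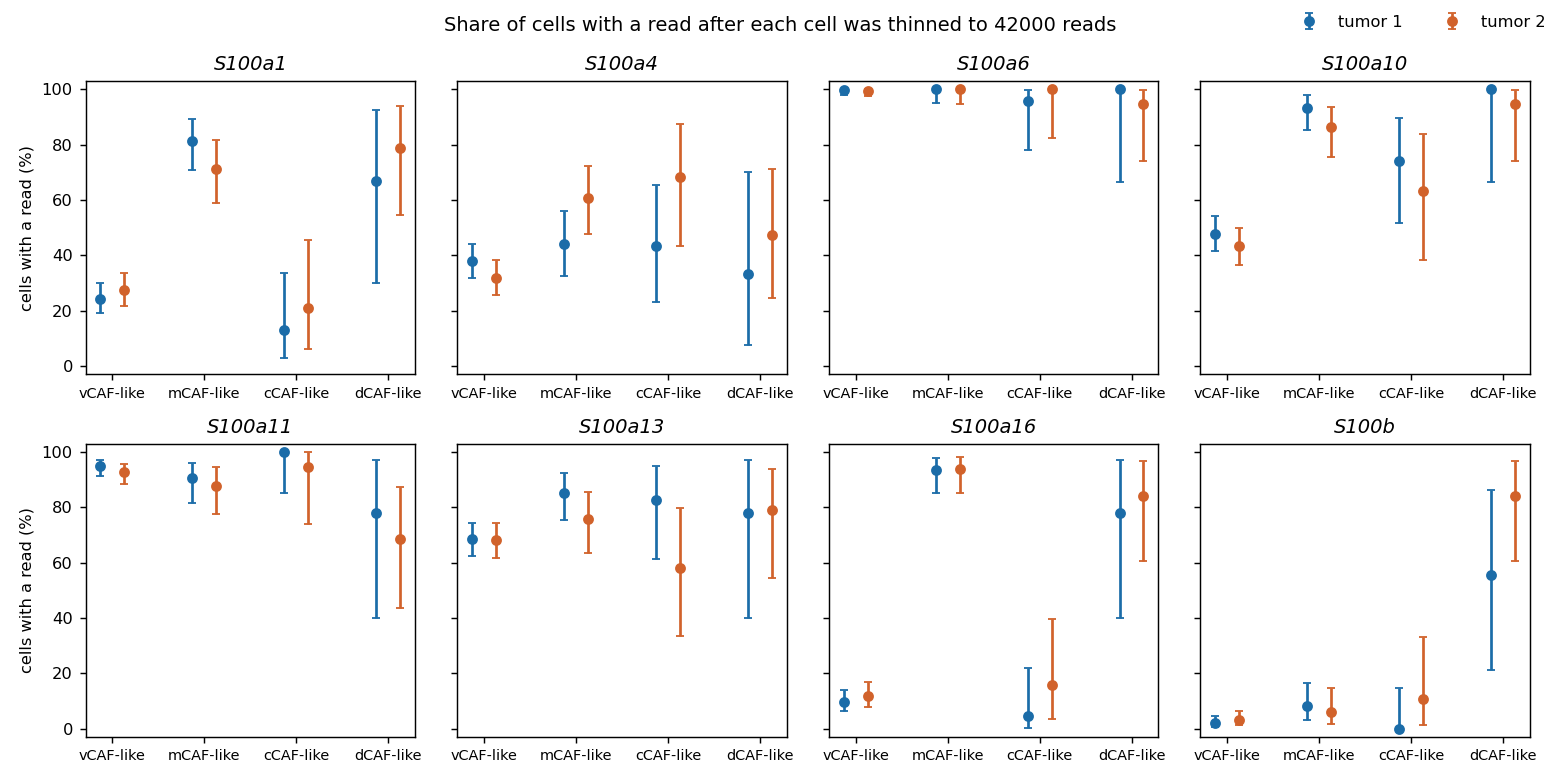
Percent of cells of each population with a read of each S100 gene after every cell was thinned to 42000 reads, by tumor, with exact (Clopper-Pearson) 95% binomial intervals, which cover counting error only. *S100a4* lies at intermediate shares in all 4 populations, while *S100a16* is at 93.3% and 93.9% in mCAF-like and 9.56% and 11.8% in vCAF-like cells.

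The number of members read per cell followed these shares. Cells had a mean of 4.24 and 4.11 of the 8 members in vCAF-like, 6.47 and 6.45 in mCAF-like, 4.42 and 5.05 in cCAF-like and 6.44 and 6.70 in dCAF-like populations. Over the 5 members not read nearly everywhere (*S100a1*, *S100a4*, *S100a10*, *S100a16*, *S100b*), the most frequent state of a vCAF-like cell was to have none of them, in 52 of 262 and 63 of 235 cells. The most frequent state of an mCAF-like cell was to have the first 4 of them without *S100b*, in 33 of 76 and 29 of 66 cells, followed by the same set without *S100a4* in 20 and 12 cells.

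To compare populations, counts were summed per tumor and population and tested with edgeR's quasi-likelihood test over 11715 genes with Benjamini-Hochberg adjustment, and all 8 members passed the filter of a mean RPKM of at least 1. In bulk sums of this kind, fewer cells with a transcript and less RNA per cell cannot be told apart. Between mCAF-like and vCAF-like cells, 2 of 8 members were called, against 5.28% of all genes. *S100a16* stood at 334 and 329 normalized RPM in mCAF-like against 15.5 and 15.4 in vCAF-like cells and was higher by a log2 fold change of 4.42 ± 0.65 (SE; adjusted p = 0.0134, or 0.0554 when every cell was scaled to the same total). *S100a10* stood at 253 and 368 against 106 and 62.2 and was higher by 1.89 ± 0.37 (adjusted p = 0.0352). With tumor as a block its adjusted p was 0.0641, so this call was lost, and without tumor 2 the difference was 1.25. *S100a1* differed by 1.94 ± 0.61, which did not pass by edgeR (adjusted p = 0.156). It was called by DESeq2 (adjusted p = 0.0266), with ERCC totals (0.0469) and with marker-score populations (0.0247), and its adjusted p over the other alternatives ran from 0.109 to 0.229. *S100a4* stood at 78.8 and 378 in mCAF-like against 194 and 210.4 RPM in vCAF-like cells, a log2 difference of 0.18 ± 0.72 (adjusted p = 0.990), and the mCAF-like values lay on either side of both vCAF-like values. The member median was 1.22 against −0.0253 over all genes tested.

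Between dCAF-like and vCAF-like cells, 5 of 8 members were called, against 10.8% of all genes. *S100b* stood at 896 and 337 against 1.44 and 1.90 normalized RPM and was higher by a log2 fold change of 8.52 ± 1.63 (adjusted p = 0.0201), or by 7.47 without tumor 1 and 9.26 without tumor 2. *S100a16* was higher by 3.23 ± 0.62 (adjusted p = 0.0197, or 0.0580 with scaled cells) and *S100a10* by 1.68 ± 0.37 (adjusted p = 0.0330, or 0.0567 with tumor as a block). *S100a11*, at 28.3 and 26.8 against 124 and 112, fell by 2.10 ± 0.25 on the log2 scale (adjusted p = 0.00311). *S100a6*, at 410.1 and 615 against 1279 and 1322, fell by 1.34 ± 0.27 (adjusted p = 0.0226). The *S100a6* call was lost when library sizes came from ERCC totals (−0.61, adjusted p = 0.315), a scaling under which the median of all genes was 0.61 in place of −0.0911, when cells were scaled to the same total (−0.95, adjusted p = 0.181), with Leiden clusters (−0.36, adjusted p = 0.535) and with marker scores (−0.12, adjusted p = 0.824). Leiden clustering counted as dCAF-like the 10 cells of an unnamed cluster with a median *S100a6* RPKM of 3936.

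Against mCAF-like cells, the dCAF-like population had 3 of 8 members called, against 10% of all genes. *S100a11* fell by 1.87 ± 0.25 on the log2 scale (adjusted p = 0.00560), *S100a6* fell by 1.89 ± 0.27 (adjusted p = 0.00734), and *S100b* was higher by 5.93 ± 1.46 (adjusted p = 0.0486, or 0.0692 with tumor as a block; 4.80 without tumor 1 and 6.78 without tumor 2). This *S100b* call was also lost in wells without reads of *Epcam*, *Pecam1* or *Ptprc* (6.01, adjusted p = 0.0563), with ERCC totals (adjusted p = 0.0559), with Leiden clusters (0.0725) and with marker scores (0.0885). Against cCAF-like cells, 5 of 8 members were called, against 16.9% of all genes. *S100a11* fell by 2.35 ± 0.25 (adjusted p = 0.00197) and *S100a6* fell by 1.03 ± 0.27 (adjusted p = 0.0394), while *S100a16*, *S100a1* and *S100b* were higher by 3.81 ± 0.64, 2.92 ± 0.64 and 6.02 ± 1.48 (adjusted p = 0.00967, 0.0241 and 0.0342). With tumor as a block the adjusted p of *S100b* was 0.0530 in this comparison. The *S100b* difference was 4.13 without tumor 1 and 12.43 without tumor 2. The latter rests on 1 *S100b* read in 1 of the 24 cCAF-like cells of tumor 1, or 0.155 normalized RPM. Without tumor 1 and without tumor 2, the *S100a16* differences were 2.82 and 5.45 and those of *S100a1* were 2.36 and 4.13. The *S100a6* calls of both comparisons were also lost with Leiden clusters (−0.91 and −0.0742, adjusted p = 0.119 and 0.892). With ERCC totals 1 member was called lower in dCAF-like than in cCAF-like cells, in place of 2. *S100a4*, at 139.5 and 64.4 in dCAF-like against 325 and 625 RPM in cCAF-like cells, differed by −2.22 ± 0.76, which did not pass by edgeR (adjusted p = 0.0927). This difference was called by DESeq2 (−2.12, adjusted p = 0.0202) and by edgeR with no filter on genes (−2.27, adjusted p = 0.0480), while over the other alternatives its adjusted p ran from 0.0667 to 0.611, the last with Leiden clusters (−0.64). Without tumor 1 the difference was −3.28, and without tumor 2 it was −1.23.

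Between the cycling and the vCAF-like cells, no difference in a member passed the test. By edgeR 0 of 8 members were called between cCAF-like and vCAF-like cells, where 0.376% of all genes were, with 0 at an unadjusted p under 0.05 (1468 of 11715 genes). DESeq2 called 0 of 8 (806 genes), with 1 at an unadjusted p under 0.05 (1876 genes). *S100a4* stood at 325 and 625 against 194 and 210.4 RPM, a log2 difference of 1.23 ± 0.73 (adjusted p = 0.589). Against mCAF-like cells, 3 of 8 members were called in cCAF-like cells, against 11.5% of all genes. *S100a16* fell by 5.00 ± 0.68 on the log2 scale (adjusted p = 0.00696), *S100a1* fell by 2.79 ± 0.64 (adjusted p = 0.0356) and *S100a10* fell by 1.48 ± 0.37 (adjusted p = 0.0474, or 0.0731 with tumor as a block). Without tumor 1 the first 2 stood at −4.26 and −2.22, and without tumor 2 at −6.43 and −4.02. In place of the 18 member calls over the 6 comparisons, 13 were made with tumor as a block. When every cell was scaled to the same total before summing there were 9, with each *S100a10* and *S100a6* call lost and 3 of the 4 *S100a16* calls at adjusted p = 0.0554, 0.0580 and 0.0559. With populations drawn by marker scores, 11 calls were lost: each of *S100a6*, *S100a10* and *S100b*, and *S100a11* against vCAF-like (−0.85, adjusted p = 0.120) and mCAF-like cells (−0.66, adjusted p = 0.183). Both *S100a1* calls and the *S100a11* call against cCAF-like cells held in all of these. edgeR, as fitted here, called *S100a4* in none of the 6. DESeq2 made each of the 18 calls and 5 more: *S100a1* in mCAF-like and in dCAF-like cells against vCAF-like cells, *S100a6* in cCAF-like against mCAF-like cells, and *S100a10* and *S100a4* in dCAF-like against cCAF-like cells. Against all other wells, 4 of 8 members were called in vCAF-like cells (12.8% of all genes), 4 in mCAF-like cells (16.2%), 0 in cCAF-like cells (4.56%; 3 of 8 at an unadjusted p under 0.05 by edgeR, as were 2555 of 11715 genes) and 2 in dCAF-like cells (5.98%).

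**Figure D4:**
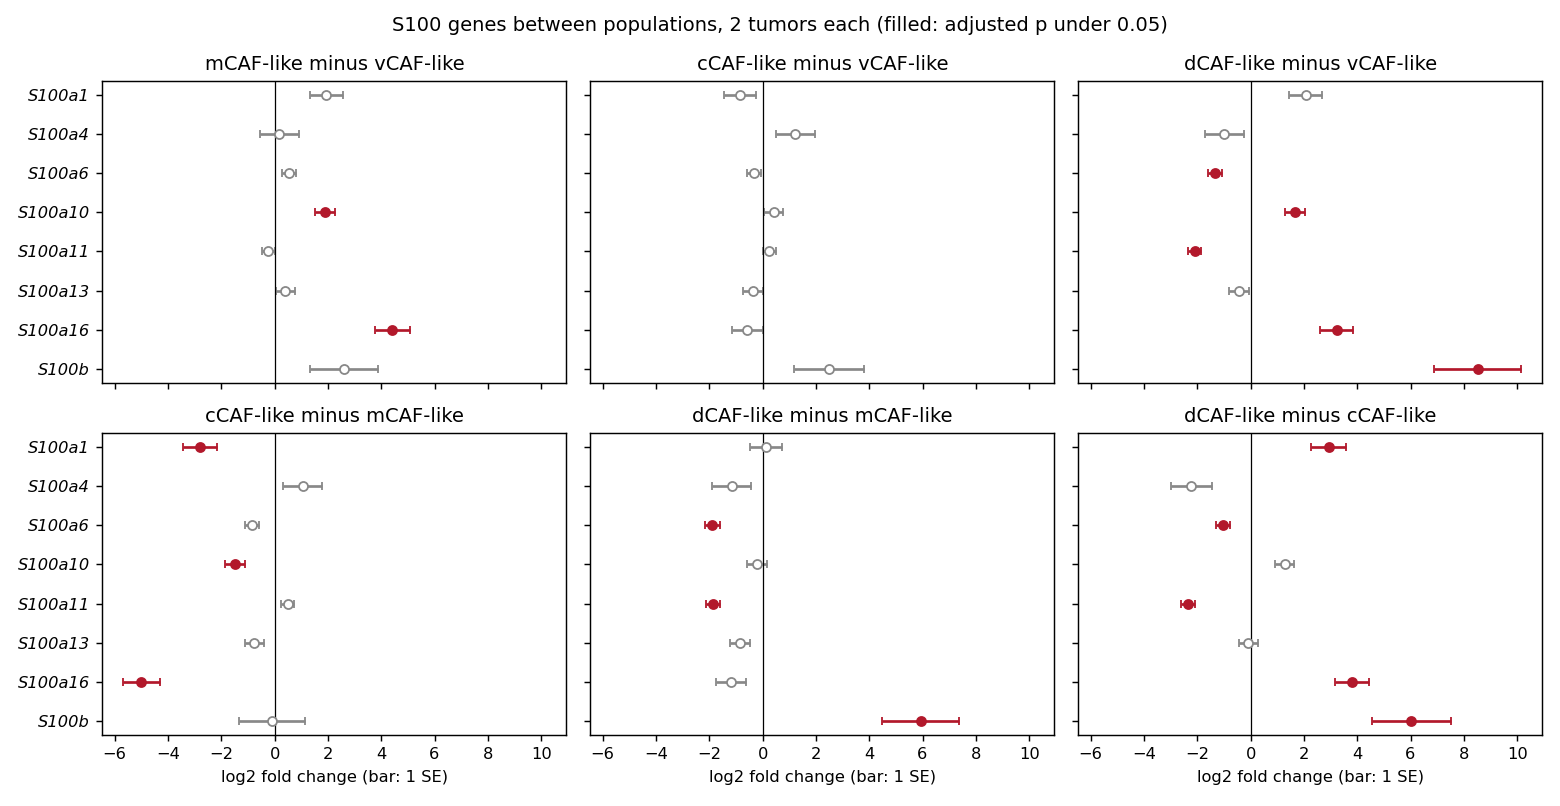
Log2 fold change of each S100 gene (x axis, bar: 1 SE) in the 6 comparisons between populations, each over 2 tumors, with filled points for an adjusted p under 0.05. *S100a16* is filled in 4 panels, *S100a11* and *S100a6* in the 3 panels with dCAF-like cells, and *S100a4* in none.

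The relatives were then compared between *S100a4*-positive and *S100a4*-negative cells of the same population. In vCAF-like cells, a read of *S100a10* was found in 63.6% of the *S100a4*-positive and 45.4% of the negative cells of tumor 1, and in 66.7% and 33.1% in tumor 2. With the *S100a4* state set again from thinned counts, these were 57.9% against 41.7% and 62.9% against 34%. That gave 95 positive and 156 negative cells in tumor 1 and 70 and 150 in tumor 2, in place of 110 and 152 and 84 and 151. The log2 difference in summed counts was 1.19 in tumor 1 and 1.30 in tumor 2. *S100a6* was higher in the positive cells of tumors 1 and 2 by 0.53 and 0.54, *S100a11* by 0.33 and 0.71, and *S100a16* by 0.94 and 0.25. The share of cells with an *S100a16* read did not follow its sums in both tumors: it was 19.1% of positive against 10.5% of negative cells in tumor 1 and 14.3% against 17.2% in tumor 2.

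None of these differences passed the test across 11709 genes. In both populations 0 of 7 relatives were called by edgeR, against 0.00854% of all genes in each. DESeq2 also called 0 of 7 in each, where it called 31 of 11709 genes in vCAF-like and 142 in mCAF-like cells. In vCAF-like cells 4 of 7 relatives had an unadjusted p under 0.05, against 2.6% of all genes, and in mCAF-like cells 1 of 7, against 6.89%. *S100a10* had the lowest unadjusted p in vCAF-like cells, with a fitted difference of 1.24 ± 0.34 (SE; adjusted p = 1). The median over the relatives was 0.55 in vCAF-like and 0.32 in mCAF-like cells, against 0.0056 and 0.0071 over all genes. With ERCC totals as library size these were 0.80 and 0.90, against 0.26 and 0.60 over all genes. The *S100a4*-positive cells had the lower median share of ERCC reads in both tumors of these 2 populations, at 13.6% against 15.9% and 11.3% against 13.7% in vCAF-like and 5.64% against 6.99% and 5.71% against 6.81% in mCAF-like cells. In mCAF-like cells *S100a16* differed by 0.52 ± 0.22, with 0.54 and 0.53 in tumors 1 and 2, and *S100a6* by 0.40 ± 0.20. The difference between the populations in these contrasts was tested for the 7 relatives as an interaction. By edgeR 0 of them were called, as were 0 of 11709 genes, and by DESeq2 0 of them, where 73 genes were called. At an unadjusted p under 0.05 by edgeR there were 0 of 7, against 4.88% of all genes. Their log2 values by edgeR ran from −0.92 to −0.00848, with a lowest unadjusted p of 0.0861. The *S100a4*-positive cells were deeper in every case, with medians of 218590 against 184966 and 191482 against 185051 reads in vCAF-like and 301692 against 270450 and 291038 against 170707 in mCAF-like cells. The part of depth in these differences was not tested beyond thinning.

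**Figure D5:**
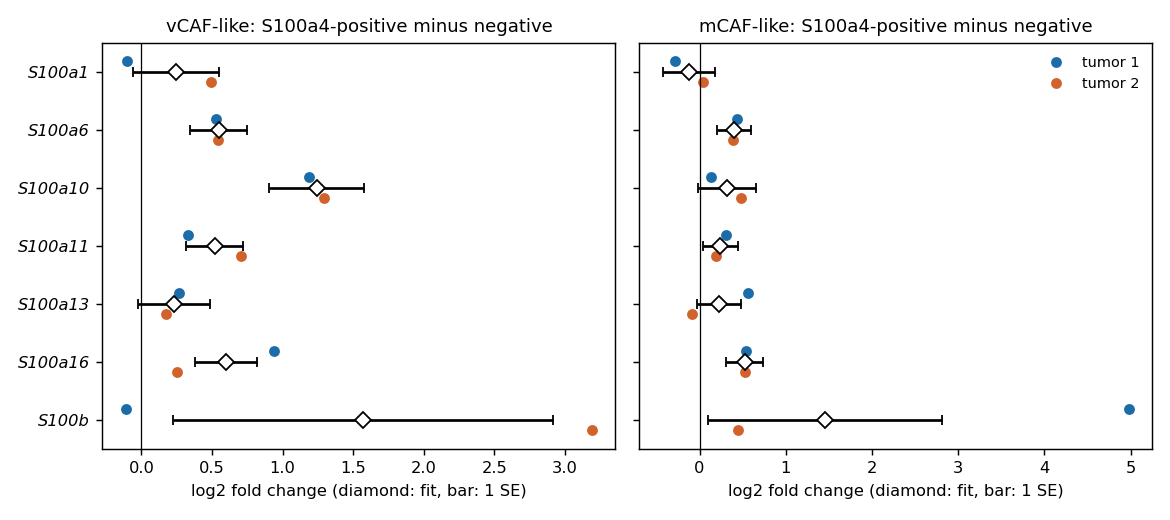
Log2 fold change of each relative between *S100a4*-positive and *S100a4*-negative cells (x axis) in vCAF-like (left) and mCAF-like cells (right), with the value of each tumor as a point and the fitted value as a diamond with a bar of 1 SE. *S100a10* lies at 1.19 and 1.30 in vCAF-like cells, *S100a6* above 0 in both tumors of both panels, and *S100b* is spread widest.

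Cell-to-cell variation was also set against that fitted on the ERCC spike-ins. Of 10815 genes ranked by the ratio of their variance to that allowed by the technical trend and a fixed biological minimum, *S100b* ranked 138 (ratio 8.76) and *S100a4* ranked 241 (6.02). *S100a10* (1.90), *S100a6* (1.73) and *S100a16* (1.53) had ratios above 1, and *S100a1* (0.733), *S100a13* (0.395) and *S100a11* (0.313) below it, the last at rank 10522. *S100b* and *S100a4* thus stood near the top of the ranking and *S100a11* near its end.

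Correlations over single cells are given as descriptions, since cells of a tumor share their plate, depth and populations. Over all 727 wells the Spearman coefficient between pairs of members, as the mean of both tumors, ran from −0.119 to 0.471 with a median of 0.186, and the median was 0.141 on thinned counts. *S100a10* and *S100a16* formed the closest pair (0.471), and within vCAF-like cells the closest were *S100a6* with *S100a10* (0.457) and *S100a6* with *S100a11* (0.454). Among 9900 genes compared with each member, those most like *S100a4* were *S100a6* (0.374), *S100a10* (0.373) and *Axl* (0.315), the last a receptor tyrosine kinase. Those most like *S100a6* were *Lgals1* (0.573), encoding galectin-1, *Vim* (0.522), encoding vimentin, and *Anxa2* (0.452), encoding annexin A2. *S100a11* was most like *Crip1* (0.563) and the contractile genes *Acta2* (0.563) and *Tagln* (0.526), and *S100a16* was most like *Tpbg* (0.693), *Fgfr1* (0.689) and *Rnase4* (0.687). For *S100a1* the leading genes were *Ndufa4* (0.450), *Tpbg* (0.420) and *Pdpn* (0.419), for *S100a10* *Ndufa4* (0.492), *Rnase4* (0.485) and *Anxa2* (0.483), for *S100b* *Jam2* (0.350), *Casp1* (0.319) and *Ntn1* (0.314), and for *S100a13* *S100a6* (0.239), *Mxra8* (0.235) and *Lgals1* (0.233).

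Of 15 listed binding partners and receptors of S100 proteins, 13 could be tested (*Fgf1* and *Syt1* could not). *Myh10*, a non-muscle myosin heavy chain, was higher in mCAF-like than in vCAF-like cells by a log2 fold change of 4.12 ± 0.77 (adjusted p = 0.0290), and no other partner was called by edgeR in that comparison, where 5.28% of all genes were called and DESeq2 called 2 partners. Between dCAF-like and vCAF-like cells 1 partner was higher (*Myh10*, 4.12) and 3 were lower, of 13 tested, against 10.8% of all genes called. *Anxa1*, the annexin that S100A11 binds, fell by 4.13 ± 0.23 on the log2 scale (adjusted p = 1.7e-04), *Anxa5* fell by 1.80, and *Myh9*, the myosin that S100A4 binds, fell by 1.496. *Anxa1* was also lower in dCAF-like than in mCAF-like (−3.72) and cCAF-like cells (−4.49). Between cCAF-like and vCAF-like cells 0 of 13 were called by edgeR and 0 by DESeq2, with 0 at an unadjusted p under 0.05 by edgeR, where 0.376% of all genes were called by edgeR, 806 of 11715 by DESeq2, and 1468 had an unadjusted p under 0.05 by edgeR.

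The other 9 S100 genes listed in the tables were each read in at most 15 of the 727 wells. *S100a8* was read in 15 wells, *S100a7a* in 11, *S100a3* in 10, *S100a14* in 5, *S100a5* in 2, and *S100a9* and *S100g* in 1 each. *S100a2* and *S100z* were read in 0, which by a floor of 3 counts allows a share of wells with a read of up to 0.804% in tumor 1 and 0.847% in tumor 2, for counting error only, and sets no limit on expression below detection. *S100a8*, which with *S100a9* encodes the calprotectin of myeloid cells, was unevenly spread: 5 of its 15 wells were among the 20 dCAF-like cells of tumor 2, where its mean was 74.1 RPKM, against 0 of 9 dCAF-like cells of tumor 1 and a mean of at most 4.40 RPKM in the other 3 populations. Of the immune markers, *Ptprc*, which encodes CD45, had no read in dCAF-like cells of either tumor, while *Fcer1g* was read in 3 of 9 and 2 of 20 dCAF-like cells and *Cd68* in 0 of 9 and 2 of 20, and the whole list summed to 6.83 and 10.5 RPM against 2.45 and 8.29 in vCAF-like cells. Immune markers were also read in mCAF-like cells: *Cd68* in 9 of 76 and 3 of 66, and *Fcer1g* in 2 of 76 and 1 of 66. *Csf1r* was read in 10 of 76 and 7 of 66 mCAF-like cells, against 0 of 9 and 0 of 20 dCAF-like cells. The part of immune RNA in the *S100a8* reads was not tested. *S100a14* was read in 1 dCAF-like cell of each tumor.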

How the data were processed

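Single fibroblasts of 2 tumors were profiled by Smart-seq2, without molecular identifiers, so that intervals cover counting error only and p-values only the spread between these 2 tumors. The deposited tables hold whole read counts per gene and, made from them by the authors, RPKM, after alignment with STAR to mm10 and RefSeq genes; the deposited RPKM were scaled to all reads, ERCC included. Wells with at least 10000 non-ERCC reads were used (727 of 768, 10281 to 1190516 reads), and no doublet caller was run, since each well received 1 cell. Cells were clustered without S100 genes (lowest-cost t-SNE of 50 starts, then DBSCAN) and named from fixed markers. The members, lists and markers were chosen with earlier results of these data known. Genes named beside the members are, for each, the 3 with the highest Spearman coefficient. Counts summed per tumor and population were tested with edgeR 4.0.16 (TMM, quasi-likelihood, Benjamini-Hochberg, threshold 0.05, filter of mean RPKM of at least 1); DESeq2 1.42.0 and the alternatives of the closing section were also run, and the scripts were tested on simulated data. Libraries of 1 tumor come from the same tumor and are paired: their deviations from the group means correlated at 0.0198 to 0.106 (6 pairs of populations) and 0.0488 to 0.181 (*S100a4* states).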

Additional observations from a re-analysis of the deposited data

How the results depend on the processing

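Over the processing alternatives, 691 log2 fold changes of members kept direction and, where tested, their call (those without 1 tumor have no test), 51 lost a call, 12 gained one, 33 turned sign, all of differences not called, and 20 without 1 tumor moved by more than the spread. With tumor as a replicate block, the genes called fell to 11 between cCAF-like and vCAF-like cells (44 without it) and to 0 between *S100a4* states in either population (1 in each without it), member calls went from 18 to 13, *S100a4* between mCAF-like and vCAF-like cells turned to −0.0043, and the block changed no call of a member other than those printed beside the results. DESeq2 called 1372 (mCAF-like against vCAF-like), 806 (cCAF-like against vCAF-like), 2339 (dCAF-like against vCAF-like), 2665 (cCAF-like against mCAF-like), 2329 (dCAF-like against mCAF-like), 3280 (dCAF-like against cCAF-like), 31 and 142 (*S100a4* states in vCAF-like and mCAF-like cells) and 73 (their difference) genes, against 619, 44, 1260, 1351, 1177, 1982, 1, 1 and 0. At an adjusted p of 0.001 the population counts were 20, 0, 116, 27, 101 and 122 and member calls 0. ERCC totals gave 1214, 153, 7 (mCAF-like *S100a4* states) and 1 (difference), and put the median of all genes at 0.84, 0.69 and 0.61 in the comparisons of the mCAF-like, the cCAF-like and the dCAF-like populations with vCAF-like cells (otherwise −0.0253, −0.0486 and −0.0911). Scaled cells gave 78, 0 and 5 genes (cCAF-like against vCAF-like, then both *S100a4* splits) and 9 member calls; no filter gave 193, 8, 23 and 10 (difference); wells without gate-gene reads gave 29 for cCAF-like against vCAF-like cells. Marker-score populations gave 342, 479 and 870 genes for dCAF-like cells against vCAF-like, then mCAF-like, then cCAF-like cells, and 9 member calls. Calling *S100a4* after thinning gave 0 and 0 genes, and from 5 reads 2 in mCAF-like cells. Against all other wells, cCAF-like cells had 0 members called and dCAF-like cells 2, where 6 and 6 different members were called in at least 1 pairwise comparison. The *S100a4* share from 5 reads was 30.7%, 54.2% and 44.7% for the vCAF-like, the mCAF-like and the dCAF-like populations, 52.3% and 40.4% in the latter pair when thinned, and in dCAF-like cells 56.7% after the quality rule, 61.8% with Leiden and 50.8% with marker-score populations. Signs turned, all in differences not called, for ERCC totals in *S100a11* (0.64, mCAF-like against vCAF-like), *S100a13* (0.39), *S100a16* (0.18) and *S100a6* (0.43, all cCAF-like against vCAF-like), *S100a13* (0.32, dCAF-like against vCAF-like), *S100a1* (−0.0214, dCAF-like against mCAF-like) and *S100a1* (0.46, mCAF-like *S100a4* states); for scaled cells in *S100a16* (0.33, cCAF-like against vCAF-like; 1.33 with marker scores); for gate-free wells in *S100a4* (−0.0229, mCAF-like against vCAF-like); for Leiden and marker-score populations in *S100a4* (0.64 and 0.42, dCAF-like against vCAF-like; 0.50 against mCAF-like with Leiden) and *S100a10* (0.19 and 0.0034, dCAF-like against mCAF-like); and in *S100a13* between dCAF-like and cCAF-like cells for DESeq2 (0.0057), its size factors (0.0), scaled cells (0.0964), a mean RPKM of 10 (0.0127) and marker scores (0.17). Without 1 tumor, ranges that crossed 0 were −1.31 to 0.85 for *S100a4* (mCAF-like against vCAF-like), −2.55 to 0.82 (dCAF-like against mCAF-like), −0.16 to 1.04 for *S100a10*, −2.01 to 0.15 for *S100a16* and −3.18 to 3.33 for *S100b* (cCAF-like against vCAF-like), −5.65 to 0.66 for *S100b* (cCAF-like against mCAF-like), −0.75 to 0.33 for *S100a10* (dCAF-like against mCAF-like), −0.69 to 0.38 for *S100a13* (dCAF-like against cCAF-like), and between *S100a4* states −0.10 to 0.49 (*S100a1*) and −0.11 to 3.19 (*S100b*) in vCAF-like and −0.29 to 0.035 (*S100a1*) and −0.0858 to 0.56 (*S100a13*) in mCAF-like cells. Of the 18 member calls, 9 were lost with scaled cells, 11 with marker-score populations, 5 with the block, 4 with Leiden populations, 3 with ERCC totals and 1 without wells with gate-gene reads; calls gained numbered 5 with DESeq2 (which lost 0), 2 with ERCC totals, 2 with marker scores, and 1 each with Leiden populations, no filter and a mean RPKM of 10. The adjusted Rand index (corrected for chance) between the map used and the other starts ran from 0.451 to 0.996. No test was rerun on the other starts. The cause of these changes was not tested. Shares of cells with a read depend on depth: in vCAF-like cells *S100a13* was read in 68.5% and 68.2% when thinned, against 83.6% and 78.3%, and *S100b* in 1.99% and 3.18%, against 7.25% and 5.53%.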

Other observations

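The 16 unnamed wells fell in 2 clusters with opposite S100 profiles. One held 10 cells (1 of tumor 1 and 9 of tumor 2) with a median of 225671 reads, whose leading genes were *Gdf10*, *R3hdml* and *Wisp2*. All 10 had *S100a4*, at 734 to 4374 RPKM with a median of 2758, as well as *S100a6* (median 3936), *S100a10* (882), *S100a11* (148) and *S100a13* (87.7), while *S100a16* was read in 9 and *S100b* in 3. The other held 6 wells with a median of 16210 reads, led by red-cell genes such as *Alas2* and *Bpgm*. In these, *S100a4*, *S100a1* and *S100b* were read in 1 well each, *S100a6* and *S100a10* in 2, and *S100a11*, *S100a13* and *S100a16* in 0. These clusters were singled out after their values were seen, and with 1 cell of the first in tumor 1 they entered no comparison between the 4 populations of the map. They are among the other wells where 1 population was set against all others, and some or all were given a population by Leiden clustering and by marker scores.

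Splitting vCAF-like and mCAF-like cells by *S100a4* left 1 other gene called in each by edgeR over 11709 genes. *Crispld2* was higher in the positive vCAF-like cells by a log2 fold change of 2.33 (adjusted p = 0.0423), and *Rasl12* was lower in the positive mCAF-like cells by a log2 fold change of −3.86 (adjusted p = 0.0337). With tumor as a block 0 genes were called by edgeR in either population, DESeq2 called 31 and 142, and at an unadjusted p under 0.05 edgeR without the block had 305 and 807 genes in the vCAF-like and mCAF-like splits.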
